A study of Mus musculus with 20 samples.

Results

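The 39 interferon response genes described here were chosen by symbol as a list of genes that interferons are known to induce or that carry the interferon signal. All 39 had an entry in both deposited count tables, among 15608 genes in the liver table and 20738 in the epididymal white adipose tissue (eWAT) table, and all 39 passed the filter on low counts in each tissue. Messenger RNA had been sequenced from male mice aged 2 months in 4 groups of 5 libraries: IR 4A eWAT, WT eWAT, IR 4A liver and WT liver. WT denotes wild type. The labels give the genotype as IR 4A without defining it; from background knowledge of the study, not from the labels, it is an insulin receptor allele in which alanines replace the motif that binds the checkpoint protein MAD2. The series asks what MAD2-dependent uptake of the insulin receptor does for metabolism, and the labels name no interferon, virus or other treatment. The labels give neither the strain, nor whether 1 or both alleles were altered, nor which animal a library came from, so each library was taken as a separate sample and the p-values measure the spread between libraries only.

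Interferons are secreted proteins that cells release on sensing viral nucleic acid. Type I interferons act through a receptor with JAK kinases and a complex that holds STAT2 and IRF9, which binds a promoter element called the ISRE (interferon-stimulated response element). Interferon gamma acts through its own receptor and a shorter element called GAS. The genes so induced encode sensors of viral RNA, antiviral effectors, GTPases that attack the vacuoles of intracellular pathogens, and parts of the machinery that presents antigen to T cells. Resting liver and fat keep a low level of many of them without infection, in parenchymal cells as well as in macrophages and endothelium.

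The promoter elements were looked up in RefSeq promoter windows on the GRCm38.p6 assembly, which hold 250 bases before and 50 bases after a transcription start and were on hand for 29 of the 39 genes. An ISRE-like match (GAAA, any 2 bases and GAAA again, on either strand) was present in 16 of those 29 genes (55.2%), against 3.99% of all 27025 genes with a window. A GAS-like match (TTCNNNGAA, the same on both strands) was present in 8 of the 29 genes (27.6%), against 9.55% of all genes. The stretches below, chosen after the matches were known, show the ISRE-like match in capitals for genes whose values are described further on. Positions count back from -1, the last base before the start, and each stretch is written 5′ to 3′ on the strand of its gene.
Ifit1, chr19:34640773-34640825, plus strand, bases -116 to -64: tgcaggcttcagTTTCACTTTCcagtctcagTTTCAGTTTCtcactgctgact
Ifit3, chr19:34583361-34583428, plus strand, bases -168 to -101: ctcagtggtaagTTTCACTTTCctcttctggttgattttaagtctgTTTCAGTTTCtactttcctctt
Ifit3b, chr19:34607757-34607824, plus strand, bases -200 to -133: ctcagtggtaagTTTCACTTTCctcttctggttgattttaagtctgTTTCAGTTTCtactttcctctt
Oas1a, chr5:120907526-120907557, minus strand, bases -32 to -1: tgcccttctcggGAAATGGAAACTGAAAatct
Isg15, chr4:156200863-156200908, minus strand, bases -90 to -45: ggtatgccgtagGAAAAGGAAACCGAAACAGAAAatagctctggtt
Gbp7, chr3:142530271-142530304, plus strand, bases -65 to -32: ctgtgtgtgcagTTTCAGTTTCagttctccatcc
Gbp2, chr3:142620592-142620625, plus strand, bases -71 to -38: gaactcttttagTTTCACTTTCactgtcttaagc
Igtp, chr11:58199510-58199543, plus strand, bases -46 to -13: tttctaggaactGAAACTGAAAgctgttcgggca

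Ifit1 and Ifit3 each carried 2 separate ISRE-like matches, Oas1a 2 overlapping ones, Isg15 3 overlapping ones, and Gbp7, Gbp2 and Igtp 1 each. Igtp also held a GAS-like match at bases -45 to -37, left in lower case, and outside the stretches shown Gbp7 held 2 GAS-like matches and Oas1a 1. The stretches of Ifit3 and Ifit3b were the same at 68 of 68 bases. These genes are neighbouring copies of each other, so reads of Ifit3 and Ifit3b could be assigned to either, and the same holds among the guanylate-binding proteins and between Oas1a and its close relatives. A match describes the letters of the window and does not show that a factor binds there.

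The libraries held 13651874 to 15530589 counts in IR 4A eWAT, 15702786 to 21615358 in WT eWAT, 18209000 to 24238359 in IR 4A liver and 17989420 to 21067651 in WT liver. Levels are given in CPM, a gene's count scaled to its library's total after adjustment of the libraries by TMM. Few reads lie behind the least abundant genes: the lowest count was 3 for Oas3 and 9 for Oasl1 in IR 4A eWAT, and 6 for Oas3 in IR 4A liver. The 8 hepatocyte markers summed to 62950 to 75680 CPM in IR 4A liver and 63190 to 72200 CPM in WT liver. The 8 adipocyte markers summed to 1744 to 10310 CPM in IR 4A eWAT and 5602 to 19230 CPM in WT eWAT, so the fat libraries differed widely in adipocyte RNA. All 13 epididymis markers were also measured in eWAT, at a sum of 21000 to 30620 CPM in IR 4A and 5255 to 21900 CPM in WT, and the mean level of these markers in WT library 4 was 2.49 on the log2 CPM scale against 9.07 to 10.2 in the other 9 libraries. A difference between bulk samples cannot tell fewer cells of a type from less RNA per cell.

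In eWAT the interferon response genes were on the whole lower in IR 4A than in WT, but none passed the test. Of the 39 genes, 36 had a negative log2 fold change (92.3%), where 59.9% of all 16476 genes tested did. The median of the 39 was -0.39, against -0.08 over all genes tested. With the edgeR quasi-likelihood test and Benjamini-Hochberg adjustment over all genes, 0 of 39 passed an adjusted p of 0.05, where 0.0121% of all genes passed it, every one lower in IR 4A. An unadjusted p under 0.05 was reached by 7 genes, all lower in IR 4A (17.9%), where 9.24% of all genes reached it on that side. DESeq2 on the same counts called 2 of the 39, Ifit1 and Ifit2, where it called 1204 of all 16476 genes. With limma voom the counts were 0 of the 39 and 78 of all genes.

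The IFIT proteins bind foreign RNA and block its translation, and their genes are among the most strongly interferon-induced. In IR 4A eWAT libraries 1 to 5 Ifit1 stood at 4.86, 4.56, 3.11, 3.95 and 4.49 CPM, against 7.22, 5.76, 7.09, 9.50 and 4.97 CPM in WT libraries 1 to 5. All 5 IR 4A libraries lay below all 5 WT libraries, and the log2 fold change was -0.72 (SE 0.20, edgeR adjusted p = 0.209). The CPM of Ifit2 in IR 4A eWAT libraries 1 to 5 were 8.56, 8.70, 3.59, 4.12 and 8.72, against 9.20, 11, 13.9, 20.6 and 10.4 in WT libraries 1 to 5. These groups did not overlap either, with IR 4A 3 and IR 4A 4 well below the rest and WT 4 above it, and the log2 fold change was -0.96 (SE 0.32, edgeR adjusted p = 0.238). Such a separation with IR 4A below WT was found for 2 of the 39 genes and for 2.82% of all genes. With DESeq2 the adjusted p was 0.0188 for Ifit1 and 0.0435 for Ifit2. The near-identical Ifit3 and Ifit3b had log2 fold changes of -0.44 and -0.46, with groups that overlapped and edgeR adjusted p values of 0.407 and 0.521.

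The OAS proteins are enzymes that sense double-stranded RNA and make an oligoadenylate messenger that activates RNase L, an activity that mouse OASL1 lacks. For Oasl2 the 5 IR 4A eWAT libraries gave 28.6, 24.3, 16.9, 20.6 and 20.7 CPM, and the 5 WT libraries 26.4, 29.9, 37.9, 47.3 and 25.4 CPM. IR 4A 1 lay within the WT range and the other 4 IR 4A libraries below it, and the log2 fold change was -0.59 (SE 0.20, edgeR adjusted p = 0.236). Oasl1 measured 0.943, 1.24, 0.677, 0.589 and 0.595 CPM in IR 4A eWAT libraries 1 to 5, against 1.64, 0.824, 1.28, 2.49 and 1.53 CPM in WT libraries 1 to 5. The WT libraries reached higher but the groups overlapped, and the log2 fold change was -0.94 (SE 0.33, edgeR adjusted p = 0.245). The log2 fold change of Oas1a was -0.31, that of Oas2 -0.39 and that of Oas3, the least abundant of the 39 genes per kb of transcript, -0.05.

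The guanylate-binding proteins (GBP) and immunity-related GTPases (IRG) coat and disrupt the vacuoles of intracellular pathogens and respond above all to interferon gamma. In IR 4A eWAT libraries 1 to 5 Iigp1 stood at 30.3, 17, 12, 15.8 and 26 CPM, against 25, 29.9, 58.5, 54 and 21.7 CPM in WT libraries 1 to 5. WT 3 and WT 4 stood above all other libraries, which overlapped, and the log2 fold change was -0.91 (SE 0.35, edgeR adjusted p = 0.261). The CPM of Gbp7 in IR 4A eWAT libraries 1 to 5 were 31.7, 21.1, 9.14, 10.7 and 25.4, against 29.1, 24, 43.9, 50.2 and 24.5 in WT libraries 1 to 5. IR 4A 3 and IR 4A 4 were lowest and WT 3 and WT 4 highest, while the remaining 6 libraries mixed, and the log2 fold change was -0.82 (SE 0.36, edgeR adjusted p = 0.314). For Gbp3 the 5 IR 4A eWAT libraries gave 20.2, 14.6, 7.65, 7.78 and 17.9 CPM, and the 5 WT libraries 18, 15.1, 25.7, 34.3 and 15.7 CPM. Gbp2 measured 34.1, 23, 7.85, 10.7 and 34.9 CPM in IR 4A eWAT libraries 1 to 5, against 29.7, 26.4, 48.2, 65.4 and 29.8 CPM in WT libraries 1 to 5. The same 4 libraries held the extremes of Gbp3 and Gbp2, with log2 fold changes of -0.68 (SE 0.33) and -0.86 (SE 0.44) and edgeR adjusted p values of 0.351 and 0.362. Igtp and Irgm1, which belong to the IRG family as Iigp1 does, had smaller differences of -0.25 and -0.29.

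Among the sensors and regulators, Ifih1 encodes MDA5, a cytosolic sensor of long double-stranded RNA. In IR 4A eWAT libraries 1 to 5 Ifih1 stood at 23.2, 19.1, 10.5, 10.2 and 22.5 CPM, against 21.1, 19.4, 28.4, 36.2 and 19.3 CPM in WT libraries 1 to 5. IR 4A 3 and IR 4A 4 were lowest and WT 3 and WT 4 highest, and the log2 fold change was -0.55 (SE 0.28, edgeR adjusted p = 0.365). The remaining sensors lay between -0.53 for Dhx58 and -0.19 for Ddx58, which encode LGP2 and RIG-I. IRF1 is a transcription factor induced by interferon gamma. The CPM of Irf1 in IR 4A eWAT libraries 1 to 5 were 40.3, 33.6, 27.5, 23.6 and 40.1, against 34.5, 27.1, 47.8, 52.3 and 41.6 in WT libraries 1 to 5. The groups overlapped, and the log2 fold change was -0.30 (SE 0.20, edgeR adjusted p = 0.473). Irf9 and Stat2, partners in the complex that binds the ISRE, were 2 of the 3 genes with a positive log2 fold change, at 0.12 and 0.03; the other was Ifi35 at 0.16.

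Parp14, an ADP-ribosyltransferase of the macrodomain family, was the remaining gene with an unadjusted p under 0.05. For Parp14 the 5 IR 4A eWAT libraries gave 43, 31.8, 17.3, 15.8 and 36.7 CPM, and the 5 WT libraries 43.1, 38.1, 51.3, 74 and 34 CPM. IR 4A 3 and IR 4A 4 were lowest and WT 4 was highest, and the log2 fold change was -0.74 (SE 0.31, edgeR adjusted p = 0.293). Rsad2 (viperin), Ifi44 and Ifi27 had log2 fold changes of -0.59, -0.61 and -0.54 with wide errors. Mx1 measured 2.17, 2.00, 1.15, 1.94 and 1.85 CPM in IR 4A eWAT libraries 1 to 5, against 2.46, 2.41, 2.40, 1.98 and 1.10 CPM in WT libraries 1 to 5. This GTPase gene, an inhibitor of influenza virus in mice that carry an intact copy, showed overlapping groups, and the log2 fold change was -0.19 (SE 0.27, edgeR adjusted p = 0.746). The authors' deposited table gives Mx1 a log2 fold change of -0.84 with an adjusted p of 0.116, larger than the value from the deposited counts, and the cause of that gap was not tested. In IR 4A eWAT libraries 1 to 5 Usp18 stood at 3.70, 3.66, 3.59, 3.59 and 3.11 CPM, against 4.09, 2.98, 4.05, 4.16 and 3.31 CPM in WT libraries 1 to 5. The groups overlapped for this gene, whose product removes ISG15 from proteins and damps interferon signalling, and the log2 fold change was -0.08 (SE 0.15, edgeR adjusted p = 0.806). Isg15 itself, the ubiquitin-like modifier, was at -0.07. The CPM of Psmb8 in IR 4A eWAT libraries 1 to 5 were 20.4, 18.4, 11, 9.49 and 18.4, against 18.5, 11, 18.7, 27.9 and 18.4 in WT libraries 1 to 5. For this immunoproteasome subunit the groups overlapped and the log2 fold change was -0.29 (SE 0.27, edgeR adjusted p = 0.633). Psmb9 and the peptide transporter gene Tap1 were at -0.15 and -0.08.

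**Figure D1:**
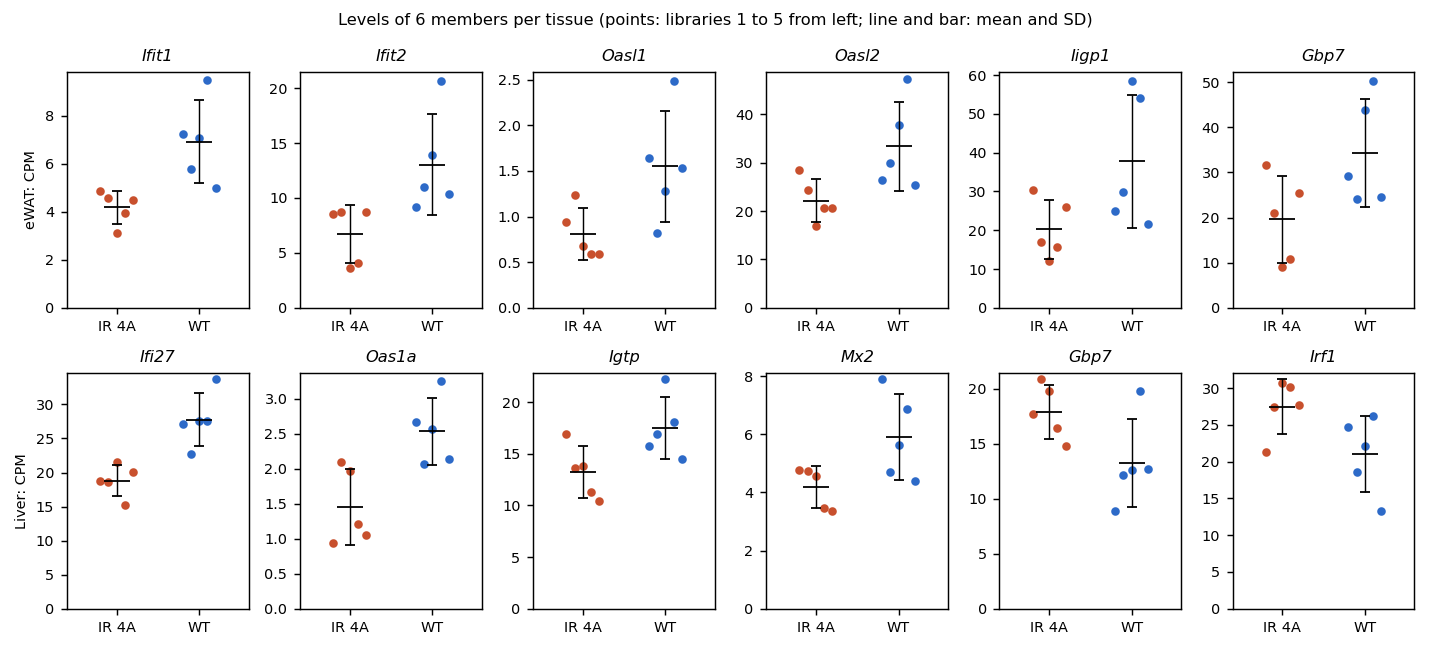
CPM of 6 interferon response genes in eWAT (upper row) and 6 in liver (lower row), with IR 4A left and WT right in each panel; points are libraries 1 to 5 from the left, and the line and bar are the mean and SD. In eWAT the groups of Ifit1 and Ifit2 do not overlap, and in liver those of Ifi27 do not.

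The genes varied together from library to library in eWAT. WT 4 held the highest value of the 10 libraries for 26 of the 39 genes, a library that held the highest value for 26.9% of all genes, and WT 3 held it for another 7, against 2.46% of all genes. The lowest value was found in IR 4A 4 for 15 genes, in IR 4A 3 for 13 and in WT 2 for 9, libraries that held it for 10.1%, 23% and 18.4% of all genes. IR 4A 3 exceeded the gene's own median for 3 of the 39 genes and IR 4A 4 for 1, while WT 3 and WT 4 did so for 38 each. In that order, these libraries exceeded it for 45.4%, 43.2%, 53.8% and 48.3% of all genes. Averaged over the 39 genes, a library's deviation from the gene's mean was -0.60 in IR 4A 3 and -0.59 in IR 4A 4, and 0.45 in WT 3 and 0.69 in WT 4 (log2). The other 3 IR 4A libraries were at -0.02 to 0.20 and the other 3 WT libraries at -0.22 to 0.06, so these 6 libraries overlapped between genotypes. Liver libraries also moved many of the genes together. WT 4 exceeded the gene's own median for 33 of the 39 genes, IR 4A 2 for 31 and IR 4A 5 for 5. These libraries exceeded it for 49.3%, 48.8% and 49.9% of all genes. Liver WT 1 held the lowest value for 16 genes, against 17.9% of all genes. Mean deviations in liver ran from -0.28 in IR 4A 5 to 0.26 in WT 4.

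**Figure D2:**
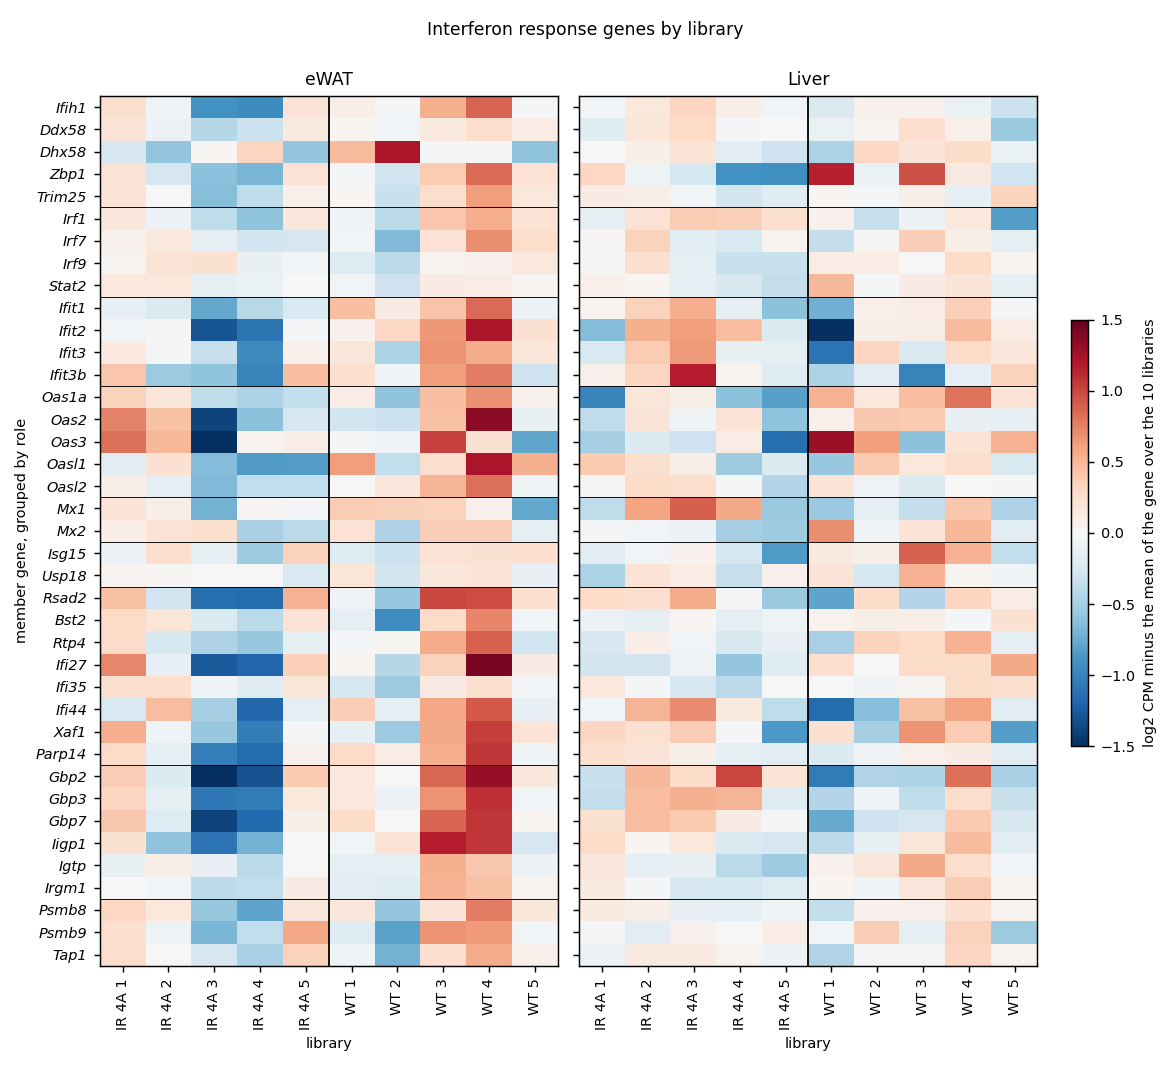
Level of each of the 39 genes (rows, grouped by role) in each library (columns), as log2 CPM minus the gene's mean over the 10 libraries of the tissue, with eWAT left and liver right and IR 4A left of WT. In eWAT the columns of IR 4A 3 and IR 4A 4 are blue and those of WT 3 and WT 4 red for most genes; in liver no column is of 1 colour throughout.

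The eWAT libraries also differed in the markers of other cells. The 12 macrophage markers summed to 193.9 to 435 CPM in IR 4A eWAT and 497 to 1462 CPM in WT eWAT, so the groups did not overlap; 11 of the 12 had a negative log2 fold change and 0 passed the edgeR test. The 8 endothelial markers summed to 143 to 651.6 CPM in IR 4A eWAT and 422.4 to 1363 CPM in WT eWAT, with 8 of 8 negative and 0 passing. All 8 adipocyte markers were negative as well, while all 13 epididymis markers were positive, again with 0 passing. WT 4 had the highest sums of the macrophage, endothelial and adipocyte markers, and IR 4A 3 and IR 4A 4 had the lowest. WT 3 was second in the macrophage sum at 860.9 CPM but lay within the range of the other libraries for the endothelial sum, at 639.9 CPM, and the adipocyte sum, at 9048 CPM. The 10 testis germ cell markers summed to 213.9 to 3514 CPM in IR 4A eWAT and 239.8 to 7519 CPM in WT eWAT, with 10 of 10 negative and 0 passing. Their highest sums were in WT 2, IR 4A 4 and IR 4A 3 (7519, 3514 and 2537 CPM), the libraries that held the lowest value of most interferon genes. WT 1 came close to IR 4A 3 at 2373 CPM but held the lowest value of 0 interferon genes. The 6 mesothelium markers summed to 151.5 to 210.7 CPM in IR 4A eWAT and 218.9 to 258.5 CPM in WT eWAT, without overlap, with 4 negative and 0 passing. Of 6 markers of plasmacytoid dendritic cells, which produce much of the type I interferon in blood, 5 were in the table and 4 of those averaged under 1 CPM. B cell markers (8 listed) summed to 3.59 to 7.92 CPM in IR 4A eWAT and 10.2 to 33.8 CPM in WT eWAT. Of these, 3 averaged under 1 CPM, and all 5 tested were negative. T and NK cell markers (15 listed) summed to 119.4 to 165.7 CPM in IR 4A eWAT and 18.8 to 129.9 CPM in WT eWAT. Of these, 9 averaged under 1 CPM, and of 7 tested 3 were positive and 4 negative. Their mean log2 CPM overlapped, at -0.32 to 0.58 in IR 4A and -0.47 to 0.89 in WT. The part of these cell types in the interferon genes' difference was not tested.

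**Figure D3:**
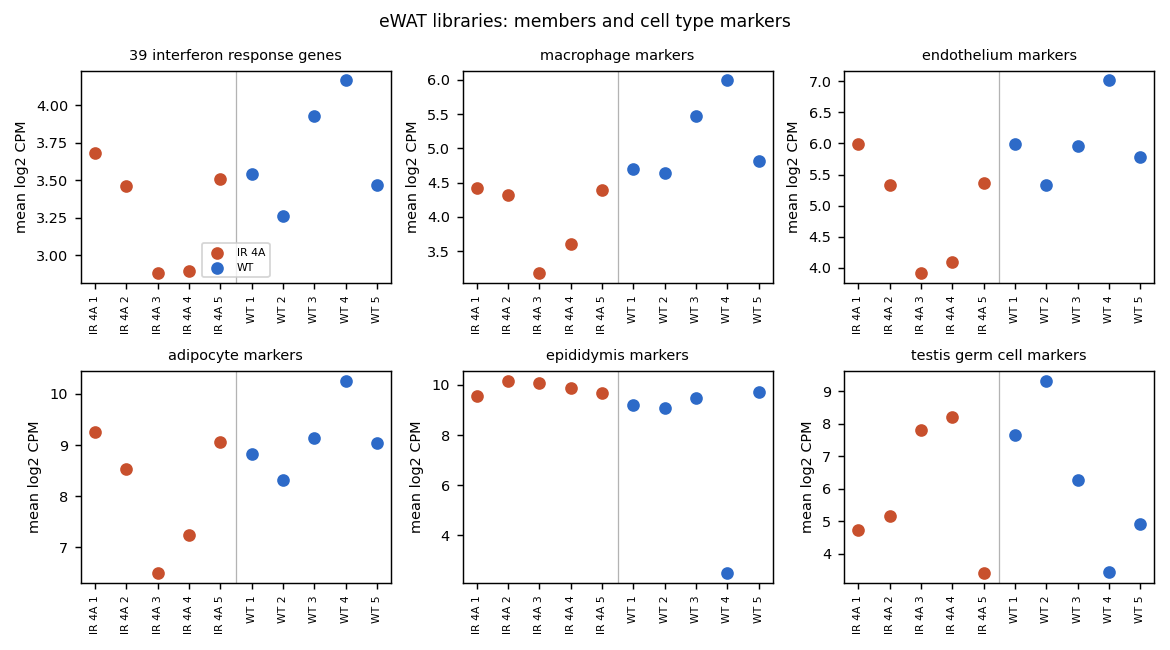
Mean log2 CPM of the 39 interferon response genes and of 5 lists of cell markers in each eWAT library, IR 4A (left, orange) and WT (right, blue). IR 4A 3 and IR 4A 4 are lowest for the interferon, macrophage, endothelial and adipocyte panels, and WT 4 is highest in those panels and lowest for epididymis.

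Leaving out WT 4 shrank the difference. Of the 36 negative log2 fold changes in eWAT, 33 became smaller in size, and 3 genes turned positive, Oas2, Bst2 and Tap1. Without WT 4 the median of the 39 was -0.21, against -0.08 over all genes, with 33 genes negative (84.6%, against 60.0% of all genes). An unadjusted p under 0.05 was reached by 3 (Ifit1, Ifit2 and Oasl2), all lower in IR 4A, which is 7.69% where 5.41% of all genes reached it on that side and 11.7% on either. Their log2 fold changes were then -0.59, -0.73 and -0.44, with edgeR adjusted p values of 0.349, 0.417 and 0.401. Leaving out IR 4A 3 also moved the median by over 1.5 times, to -0.25. The 7 genes at an unadjusted p under 0.05 became 4 without WT 3, IR 4A 3 or IR 4A 4, and 11 without WT 2. The share of all genes in those fits is not given here. That share also moved with the library left out, from 15.9% with all libraries to 11.7% without WT 4. After WT 4, IR 4A 3 and IR 4A 4 were left out together, a set chosen after the data were seen for its adipocyte markers and holding the extremes of the interferon genes too, the median was -0.03 with 25 genes negative (64.1%), against -0.00 and 50.3% over all genes. By role, 4 of 4 IFIT, 6 of 6 GBP and IRG and 2 of 2 Mx genes were then negative. In the sensor group, which also holds Trim25, 4 of 5 were negative. The counts were 2 of 5 OAS genes, 4 of 8 other antiviral genes and 0 of 3 antigen processing genes. Ifi27 was then at 0.29 and Oas2 at 0.38. Without the 4 libraries high in testis markers (IR 4A 3, IR 4A 4, WT 1 and WT 2), also chosen after the data were seen, the median was -0.31 with 35 genes negative (89.7%), against 0.01 and 49.0% over all genes. That choice left out IR 4A 3 and IR 4A 4, where the 39 genes were lowest on average. It kept WT 3 and WT 4, where they were highest (mean deviations 0.45 and 0.69).

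In liver the median of the interferon response genes was close to that of all genes, and single genes differed in both directions without passing the test. Of the 39 genes 21 had a negative log2 fold change, 53.8% against 49.0% of all 12421 genes tested, and the median was -0.00 against 0.00 over all genes. With edgeR 0 of 39 passed an adjusted p of 0.05, where 0.00805% of all genes passed it. An unadjusted p under 0.05 was reached by 10 genes (25.6%), 3 higher and 7 lower in IR 4A, where 18.1% of all genes reached it, 8.6% higher and 9.48% lower. The count of 10 became 5 without IR 4A 4 and 6 without WT 1 or WT 3. The share of all genes in those fits is not given here. It was 12.8% without both WT 1 and WT 3. DESeq2 called 1 of the 39, Ifi27, where it called 426 of all 12421 genes. With limma voom the counts were 0 of the 39 and 4 of all genes. The 12 macrophage markers summed to 89.7 to 282.6 CPM in IR 4A liver and 118.9 to 218.5 CPM in WT liver. Of these 11 were positive, 1 was negative and 0 passed. The 8 endothelial markers summed to 34.2 to 77.7 CPM in IR 4A liver and 32.8 to 84.7 CPM in WT liver, with 8 positive and 0 passing. The part of these cells in the liver values was not tested.

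Ifi27 encodes a small interferon-induced membrane protein of mitochondria and the nuclear envelope. For Ifi27 the 5 IR 4A liver libraries gave 18.8, 18.6, 21.5, 15.2 and 20.0 CPM, and the 5 WT libraries 27.1, 22.8, 27.5, 27.5 and 33.7 CPM. The groups did not overlap, and the log2 fold change was -0.54 (SE 0.12, edgeR adjusted p = 0.108). It was the only one of the 39 genes with all IR 4A liver libraries below all WT libraries, a separation found for 2.11% of all genes. With DESeq2 its adjusted p was 0.00415, and the authors' deposited table gives a log2 fold change of -0.55 with an adjusted p of 0.0123, the only one of the 39 under 0.05 there in either tissue. Bst2 measured 38.1, 36.4, 41.1, 36.5 and 38.3 CPM in IR 4A liver libraries 1 to 5, against 41.9, 42.8, 43.1, 39.5 and 47.4 CPM in WT libraries 1 to 5. Bst2 encodes tetherin, which holds budding viruses at the cell surface; IR 4A 3 lay above WT 4, so the groups overlapped, and the log2 fold change was -0.16 (SE 0.07, edgeR adjusted p = 0.254).

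In IR 4A liver libraries 1 to 5 Oas1a stood at 0.937, 2.10, 1.97, 1.21 and 1.05 CPM, against 2.67, 2.06, 2.57, 3.26 and 2.14 CPM in WT libraries 1 to 5. WT 2 and IR 4A 2 were nearly equal and the groups otherwise apart, and the log2 fold change was -0.78 (SE 0.26, edgeR adjusted p = 0.175). The CPM of Oas3 in IR 4A liver libraries 1 to 5 were 0.491, 0.599, 0.558, 0.746 and 0.316, against 1.70, 1.06, 0.453, 0.799 and 0.996 in WT libraries 1 to 5. WT 3 lay within the IR 4A range, and the log2 fold change was -0.85 (SE 0.36, edgeR adjusted p = 0.244). For Mx2 the 5 IR 4A liver libraries gave 4.77, 4.75, 4.57, 3.45 and 3.37 CPM, and the 5 WT libraries 7.88, 4.69, 5.63, 6.88 and 4.38 CPM. WT 1 and WT 4 were highest, the groups overlapped, and the log2 fold change was -0.47 (SE 0.19, edgeR adjusted p = 0.225). The related Mx1 had a log2 fold change of 0.54 in the fit to the deposited counts, and -0.07 in the authors' deposited table. Isg15 measured 2.27, 2.50, 2.68, 2.14 and 1.42 CPM in IR 4A liver libraries 1 to 5, against 2.83, 2.73, 4.73, 3.69 and 1.99 CPM in WT libraries 1 to 5. The groups overlapped, and the log2 fold change was -0.51 (SE 0.25, edgeR adjusted p = 0.295).

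In liver the GBP genes had positive and the IRG genes negative log2 fold changes, none past the test. In IR 4A liver libraries 1 to 5 Gbp7 stood at 17.7, 20.8, 19.8, 16.4 and 14.7 CPM, against 8.90, 12.1, 12.6, 19.8 and 12.7 CPM in WT libraries 1 to 5. In this gene 4 of the WT libraries lay below every IR 4A library while WT 4 lay among them, and the log2 fold change was 0.45 (SE 0.18, edgeR adjusted p = 0.229). Gbp2 and Gbp3 had log2 fold changes of 0.59 and 0.43. The CPM of Igtp in IR 4A liver libraries 1 to 5 were 16.9, 13.6, 13.8, 11.3 and 10.4, against 15.7, 16.9, 22.2, 18.1 and 14.5 in WT libraries 1 to 5. IR 4A 1 lay within the WT range and the other 4 IR 4A libraries below it, and the log2 fold change was -0.39 (SE 0.14, edgeR adjusted p = 0.208). Irgm1 was at -0.21 and Iigp1 at -0.00. Iigp1 ranged over 338 to 493 CPM in IR 4A liver and 308 to 563 CPM in WT liver.

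For Irf1 the 5 IR 4A liver libraries gave 21.4, 27.4, 30.7, 30.1 and 27.8 CPM, and the 5 WT libraries 24.7, 18.5, 22.1, 26.2 and 13.3 CPM. Irf1 was lowest in WT 5 and the groups overlapped, and the log2 fold change was 0.41 (SE 0.17, edgeR adjusted p = 0.234). Ifih1 measured 36.9, 42.1, 47.5, 40.6 and 36.9 CPM in IR 4A liver libraries 1 to 5, against 32.5, 39.5, 39.7, 35.4 and 30.2 CPM in WT libraries 1 to 5. The highest value was in IR 4A 3, the groups overlapped, and the log2 fold change was 0.22 (SE 0.10, edgeR adjusted p = 0.272). Zbp1 encodes a sensor of Z-form nucleic acid that can trigger necroptosis. In IR 4A liver libraries 1 to 5 Zbp1 stood at 9.10, 6.99, 6.14, 3.92 and 3.90 CPM, against 16.5, 6.87, 14.3, 8.11 and 5.97 CPM in WT libraries 1 to 5. WT 1 and WT 3 stood above the other 8 libraries, and the log2 fold change was -0.76 (SE 0.32, edgeR adjusted p = 0.238); without both of them, a choice made after the data were seen, Zbp1 was at -0.20 (edgeR adjusted p = 0.77), and 5 of the 39 genes (12.8%) had an unadjusted p under 0.05, where 12.8% of all genes did. The CPM of Ifit3b in IR 4A liver libraries 1 to 5 were 2.23, 2.65, 4.80, 2.19 and 1.84, against 1.53, 1.90, 1.06, 1.90 and 2.69 in WT libraries 1 to 5. IR 4A 3 stood above the other libraries, and the log2 fold change was 0.62 (SE 0.31, edgeR adjusted p = 0.308). The 4 IFIT genes were all positive in liver, at 0.11 to 0.62, but 2 of the 4 were negative without WT 1 and WT 3. For Tap1 the 5 IR 4A liver libraries gave 14.1, 16.5, 16.4, 15.6 and 14.1 CPM, and the 5 WT libraries 11, 14.7, 14.7, 18.8 and 15.6 CPM. These overlapped throughout, and the log2 fold change was 0.05 (SE 0.13, edgeR adjusted p = 0.855).

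**Figure D4:**
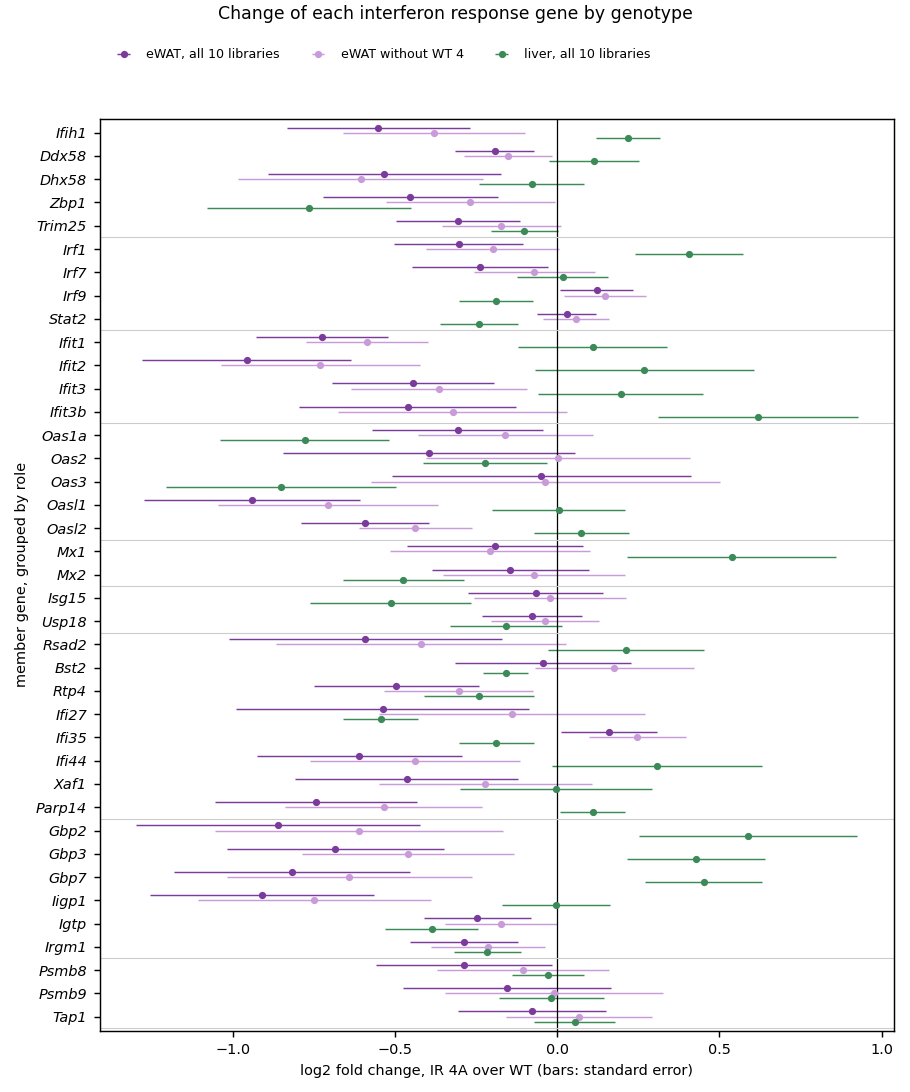
Log2 fold change of each gene, IR 4A over WT, with its standard error, in eWAT with all 10 libraries (dark purple), in eWAT without WT 4 (light purple) and in liver (green). The dark purple points lie left of 0 for 36 of 39 genes and the light ones mostly nearer to 0, while the green points lie on both sides.

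Whether the genotype difference itself differed between tissues was tested as an interaction in a fit of all 20 libraries, as eWAT minus liver. With edgeR 0 of 39 genes passed, where 2.41% of 14696 genes passed, 108 higher (0.735%) and 246 lower (1.67%). Those counts were 161 and 180 with RLE size factors in place of TMM. An unadjusted p under 0.05 was reached by 12 genes, all lower (30.8%), where 14.6% of all genes reached it on that side. The median of the 39 was -0.28, against -0.12 over all genes. Without eWAT WT 4 an unadjusted p under 0.05 was reached by 2 genes lower and 3 higher (12.8%). Of all genes 8.21% reached it lower and 19.8% on either side. The median of the 39 was then -0.02, against -0.01 over all genes. Gbp7 had the smallest adjusted p, with a log2 fold change of -0.82 in eWAT and 0.45 in liver and an interaction of -1.30 (SE 0.41, edgeR adjusted p = 0.0822). Gbp7 passed with DESeq2 (adjusted p = 0.0363), with limma voom (adjusted p = 0.0437) and with edgeR without eWAT IR 4A 1 (adjusted p = 0.0446), and Irf1 passed with limma voom alone (adjusted p = 0.0440). Over all 14696 genes DESeq2 called 603 higher and 670 lower, and limma voom 256 higher and 372 lower. Without eWAT WT 4 the interaction of Gbp7 was -1.04, with an edgeR adjusted p of 0.153. The 4 IFIT genes had interactions of -0.66 to -1.25, while those of Isg15, Usp18, Irf9 and Stat2 were positive at 0.06 to 0.43, none of them passing.

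Between the tissues of WT mice, with all libraries scaled together, these genes were more often lower than higher in eWAT. The edgeR test between eWAT and liver was passed by 28 of the 39 genes (71.8%), a share near the 77.1% of all genes that passed. Of the 39, 24 were lower in eWAT (61.5%) and 4 higher (10.3%), where 33.9% of all genes were lower and 43.2% higher. The median log2 difference of the 39 was -0.85, against 0.19 over all genes. The 18 genes lower in eWAT by over 1 on the log2 scale included the sensor genes Ifih1, Dhx58 and Zbp1, along with Trim25, Oasl1, Mx2 and all 3 IRG genes. CPM in this comparison come from the scaling over all 20 libraries and so differ from those given within a tissue. The TMM factors of that scaling were 1.47 to 1.71 in WT eWAT and 0.55 to 0.61 in WT liver. The direction of the smaller differences rests on them. Irf7, at -0.85, averaged 22.2 CPM in WT eWAT and 39.6 CPM in WT liver. Scaled within each tissue alone, Irf7 averaged 33.7 and 24.3 CPM. With RLE size factors the median of the 39 was -0.88.

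Iigp1 fell furthest, to 24.9 ± 10.9 CPM in WT eWAT, against 672.5 ± 158.1 CPM in WT liver (SD, n = 5 each), a log2 difference of -4.77 (SE 0.32, edgeR adjusted p = 7.24e-11). Oasl1 averaged 1.02 ± 0.38 CPM in WT eWAT and 12.7 ± 3.15 CPM in WT liver, a log2 difference of -3.63 (SE 0.28, edgeR adjusted p = 5.65e-10). Bst2 averaged 9.17 ± 3.41 CPM in WT eWAT and 70.1 ± 5.26 CPM in WT liver, a log2 difference of -2.95 (SE 0.20, edgeR adjusted p = 8.18e-11). Mx2, Zbp1, Trim25, whose product ubiquitinates RIG-I, and Usp18 also fell, with log2 differences of -3.18, -2.77, -2.27 and -2.25. The 4 genes that rose in eWAT were Gbp2 at 26.2 ± 10.3 CPM in WT eWAT and 5.40 ± 3.04 CPM in WT liver (log2 difference 2.27, edgeR adjusted p = 6.71e-05), Oasl2 (1.25), Ifit2 (1.19) and Gbp3 (1.01). Families split in direction: Oasl2 was higher and Oasl1 lower in eWAT, and Gbp2 was higher while Igtp, Irgm1 and Iigp1 were lower. The groups did not overlap for 4 genes higher in eWAT (10.3%, against 33.8% of all genes) and 18 genes lower (46.2%, against 26.6%). Without eWAT WT 4, 33 of the 39 passed, where of all 14757 genes 5776 passed higher in eWAT and 5620 lower. The median of the 39 was then -1.14.

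**Figure D5:**
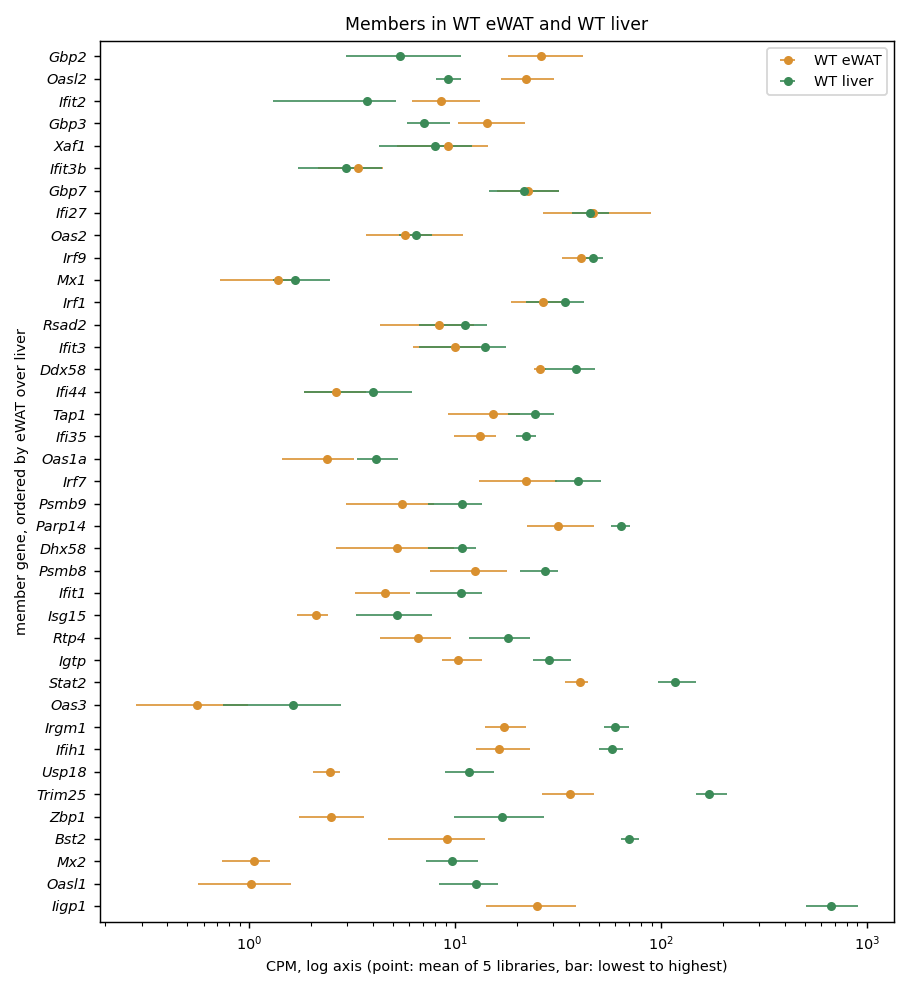
CPM on a log axis of the 39 genes in WT eWAT (orange) and WT liver (green), as the mean of 5 libraries with a bar from the lowest to the highest, ordered by the log2 difference between tissues. The 4 genes at the top are higher in eWAT, and Iigp1 at the bottom is lower by 4.77 on the log2 scale.

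Scaled to the length of the longest protein-coding transcript, the most abundant of the 39 genes in liver was Iigp1, at 131 ± 21.3 CPM per kb in IR 4A and 132 ± 31.9 CPM per kb in WT. Bst2 followed at 48.1 ± 2.43 CPM per kb in IR 4A and 54.2 ± 3.64 in WT, and Ifi27 at 19.3 ± 2.39 in IR 4A and 28.4 ± 3.99 in WT. In eWAT Ifi27 led, at 50.7 ± 28.8 CPM per kb in IR 4A and 73.2 ± 40.8 in WT, before Irf9 at 22.8 ± 2.37 in IR 4A and 21.0 ± 3.22 in WT. The WT means of Irf9 and of the next gene, Irf1 at 19.0 ± 4.72, differed by less than their SDs. Oas3 was lowest in both tissues, at 0.17 ± 0.09 CPM per kb in IR 4A eWAT, 0.18 ± 0.08 in WT eWAT, 0.11 ± 0.03 in IR 4A liver and 0.21 ± 0.10 in WT liver. Within a group the libraries spread more for these genes than for genes at large: the median SD over the 39 genes was 0.39 in IR 4A eWAT and 0.46 in WT eWAT, against 0.27 and 0.37 over all genes, and 0.25 in IR 4A liver and 0.33 in WT liver, against 0.18 and 0.24 (log2 CPM).

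Genes with and without an ISRE-like match in their promoter window had medians of similar size in eWAT. The median log2 fold change there was -0.38 for the 16 genes with a match such as Ifit1, Oas1a and Gbp7, -0.30 for the 13 without one and -0.47 for the 10 genes with no window. In liver these medians were 0.11, 0.00 and -0.19. These are descriptions of small sets and were not tested.

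Other genes of the pathway also had mostly negative log2 fold changes in eWAT with all libraries, and values on both sides of 0 in liver. Of 21 interferon ligand genes none was tested, and ligand expression is not analysed here. In eWAT 116 further genes were tested (receptors with JAK-STAT signalling, inducers of interferon and other interferon-induced genes), of which 0 passed with edgeR. Of these, 94 had a negative log2 fold change (81.0%, against 59.9% of all genes). An unadjusted p under 0.05 was reached by 32 (27.6%, against 15.9% of all genes). Of those, 28 were lower in IR 4A (24.1%, against 9.24% of all genes). Without WT 4, 81 of 117 were negative (69.2%, against 60.0% of all genes). An unadjusted p under 0.05 was then reached by 14 of the 117, a share close to the 11.7% of all genes. Of those 14, 10 were lower in IR 4A (8.55%, against 5.41% of all genes). Without WT 4, IR 4A 3 and IR 4A 4, 57 of 118 were negative (48.3%, against 50.3% of all genes), with a median of 0.00. The nucleic acid sensing receptor genes Tlr7, Tlr8 and Tlr9 were at -1.62, -1.90 and -0.98, and Tlr4, which senses bacterial lipopolysaccharide, at -1.31. Macrophages express these receptors, and macrophage markers were also lower in these IR 4A libraries, as given above; their part was not tested. In liver 112 further genes were tested, of which 0 passed and 52 were negative (46.4%, against 49.0% of all genes). An unadjusted p under 0.05 was reached by 19 of them (17.0%, against 18.1% of all genes). Jak2 and Irf2 were at 0.36 and 0.37 there, and Stat3, Lgals9 and Ifitm3 at -0.57, -0.34 and -0.40, with edgeR adjusted p values of 0.154 to 0.219. For the difference between tissues 4 of 119 pathway genes passed, named after their values were seen, where 354 of all 14696 genes passed (2.41%). These were Wars (1.23), Bst1 (-3.48), Irf2 (-0.82) and Ifi204 (-2.02), of which Wars alone passed also without eWAT WT 4 (edgeR adjusted p = 0.0252). Bst1 was not tested in liver alone and averaged 0.30 CPM in IR 4A liver and 0.08 CPM in WT liver, so its value rests on very few liver reads. Wars, a tryptophan tRNA ligase induced by interferon gamma, averaged 436 ± 35.7 CPM in IR 4A eWAT and 274.1 ± 83.0 CPM in WT eWAT, and 7.80 ± 1.30 CPM in IR 4A liver and 11.8 ± 2.74 CPM in WT liver.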

How the data were processed

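Messenger RNA was captured by poly-A and sequenced from stranded libraries made in 1 preparation, per the labels' protocols. The authors deposited a count table per tissue, held here as whole-number counts per gene with a total of at least 10 over the 10 libraries, and a second table on a log2 scale, made by a transform the sources used here do not give, which served only for a check (its rank correlation with log2 CPM was at least 0.993 in any liver library and 0.987 in any eWAT library). The authors also deposited a table of their own comparison that gives, per the file headers, a mean normalized count (signal) per gene, a log2 fold change, the standard error of that change, a test statistic (score), a p-value and an adjusted p-value. Its sign matched IR 4A over WT in 99.3% of liver genes and 99.4% of eWAT genes with p under 0.05. The submitters' processing notes name the GRCm39 build, DESeq2 1.32.0 and Salmon 1.8.0, without settings; estimated counts of close gene copies depend on how shared reads were split.

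From the counts, 83 liver and 208 eWAT entries that repeated an identifier were dropped. With edgeR 4.0.16, filterByExpr at a minimum count of 10 and a minimum total of 15 kept 12421 liver genes, 16476 eWAT genes and 14696 genes for comparisons across tissues, and libraries were scaled by TMM. The main test, in R 4.3.3, was edgeR's two-sided quasi-likelihood F test at an adjusted p of 0.05, adjusted over all genes by Benjamini and Hochberg's method. The genotypes were compared within each tissue on 10 libraries, and the interaction and the tissues in a fit of all 20. Between libraries of a group, edgeR's common biological variation (coefficient) came to 0.187 for liver and 0.512 for eWAT. The fits were tested on simulated data. The alternatives were RLE size factors, no filter or a filter of 1 CPM in at least 5 libraries, DESeq2 1.42.0, limma 3.58.1 voom with sample weights, all 20 libraries in 1 fit, a replicate block, each library left out, and 3 sets of libraries left out that were added after seeing the data. No 2 libraries of a group agreed within sampling noise (chi-square per degree of freedom at least 12.5).

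The genes, their roles and the pathway and marker lists were chosen with earlier results of these data known, so none of them is independent support for a pattern. Values of every library are given for the 10 genes of the list with the smallest p in each tissue, plus the one with the smallest p in each role group not yet represented. Of the other pathway genes up to 4 per list with the smallest p are named, less 1 gene that is not reported here. RefSeq promoter windows of the GRCm38.p6 build served for sequences only, and no coordinate was carried over to the build of the counts. Transcript lengths came from a GENCODE annotation and were used only to set levels of genes side by side.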

Additional observations from a re-analysis of the deposited data

Results flagged for a closer look

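Among 156 groups of 5 libraries (39 genes in 4 groups), 4 held a library whose gap to its nearest neighbour exceeded Dixon's critical ratio of 0.71, where chance alone gives about 1 flag in 20 groups. Ifit3b stood at 4.80 CPM in liver IR 4A 3, against 1.84 to 2.65 CPM in the other IR 4A liver libraries. Gbp2 stood at 6.63 CPM in liver WT 4, against 1.81 to 2.73 CPM in the other WT liver libraries. Usp18 was lowest in eWAT IR 4A 5 at 3.11 CPM, against 3.59 to 3.70 CPM in the other IR 4A eWAT libraries. Ifi27 stood at 140.6 CPM in eWAT WT 4, against 39 to 66.8 CPM in the other WT eWAT libraries.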

How the results depend on the processing

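Under no alternative did a gene of the list that passed between the tissues reverse its sign. The count of genes called between genotypes was 0 with edgeR under every scaling, filter and left-out library in liver and eWAT; DESeq2 gave 1 in liver and 2 in eWAT. For the difference between tissues DESeq2 gave 1, limma voom 2, and leaving out each library 0 to 1. Over left-out libraries the median log2 fold change of the 39 genes ran from -0.09 to 0.07 in liver and from -0.51 to -0.21 in eWAT. Between WT eWAT and WT liver 28 to 33 of the 39 genes passed. Of all genes, 5776 to 6373 passed there higher in eWAT and 4809 to 5620 lower. The replicate number as a block called 0 genes within each tissue and 0 for the interaction, with medians of 0.01 in liver and -0.41 in eWAT. Libraries of the same number deviated together in no consistent way (correlations of -0.07 to 0.08 in liver and -0.73 to 0.67 in eWAT), and those of eWAT with liver were -0.11 to 0.04, so the numbers were not taken as pairs; the labels do not say whether libraries of 1 number share a mouse.

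Counts over all genes, higher and lower in IR 4A, varied with the tool: in liver 0 and 1 with edgeR, 200 and 226 with DESeq2, 2 and 2 with limma voom, and 40 and 9 with all 20 libraries; in eWAT 0 and 2, 523 and 681, 18 and 60, and 76 and 219. For the difference between tissues edgeR gave 108 and 246, DESeq2 603 and 670, limma voom 256 and 372, and the block 0 and 0.

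Many log2 fold changes changed sign under an alternative, none of them past the threshold with all libraries. Of the 39 genes 11 did so in eWAT and 10 for the interaction without eWAT WT 4, IR 4A 3 and IR 4A 4, 6 for the interaction without eWAT WT 4, and 7 in liver without WT 1 and WT 3, among them Ifit1 (-0.04), Ifit3 (-0.09) and Rsad2 (-0.07). Within a tissue, the sign changes of the genes given with values of every library, and between tissues those of all 39 genes, were as follows. Tap1 in liver was -0.040 without WT 1 (up to 0.15 without other single libraries) and -0.078 without WT 1 and WT 3. In eWAT Mx1 was 0.14 without the 4 libraries high in testis markers, and Psmb8 was 0.17 without WT 4, IR 4A 3 and IR 4A 4. Between WT eWAT and WT liver, Ifi27 was -0.14 with limma voom, -0.03 without liver WT 2, and -0.49 both without eWAT WT 4 and without eWAT WT 4, IR 4A 3 and IR 4A 4 (edgeR adjusted p = 0.0145 for the last). Gbp7 was -0.05 without liver WT 1 or without eWAT WT 3, -0.11 without liver WT 1 and WT 3, and -0.26 without eWAT WT 4, alone or with IR 4A 3 and IR 4A 4. Ifit3b was -0.10 without eWAT WT 4, alone or with those libraries, and -0.074 without liver WT 1 and WT 3; Xaf1 was -0.19 in both cases without eWAT WT 4; and Oas2 was 0.00043 without the 4 libraries high in testis markers. Over single left-out libraries the highest values of Ifi27, Gbp7, Ifit3b and Xaf1 between tissues were 0.18, 0.24, 0.37 and 0.39. The cause of these changes was not tested.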
